A study of Mus musculus with 30 samples.

Results

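The 9 genes described here, of 46603 in the count table, were followed in tumour-associated macrophages of the mouse. Of these, Smpdl3a and Smpdl3b encode relatives by sequence of the acid sphingomyelinase Smpd1. The others encode enzymes that make or break down sphingomyelin and ceramide. All 9 were chosen by name: Smpdl3a, Smpdl3b, Smpd1, Sgms1, Sgms2, Sptlc1, Sptlc2, Ugcg and Asah1. Smpdl3b and Sgms2 are among the 34 genes (0.250% of 13593 tested) that differed between MHC-IIhi macrophages cultured with and without lactate. Of the other 7, Smpdl3a is a relative by sequence, and the rest are enzymes of neighbouring steps. All 9 passed the filter on low counts in every comparison.

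Macrophages were sorted from subcutaneous tumours of 3LL-R cells, a Lewis lung carcinoma line, in wild-type C57BL/6 mice, and were parted by surface MHC class II into MHC-IIhi and MHC-IIlo cells. Each subset was sequenced in bulk in 3 states with 5 libraries a state: 30000 cells lysed straight after the sort, 250000 cells cultured for 24 h without lactate, and 250000 cells cultured for 24 h with 20 mM sodium L-lactate. The labels call the libraries biological replicates without naming the mice, and the age of the mice and any pooling of tumours are not given in the sources used here. Cultured libraries are called by the number in the column header, which is 3 to 7 in no-lactate MHC-IIhi and 1, 3, 4, 5 and 6 in the other cultured groups. Fresh and cultured cells also differ in cell number and lysis, so these cannot be told apart from culture itself.

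Ceramide stands at the centre of sphingolipid metabolism. Serine palmitoyltransferase, whose core subunits are Sptlc1 and Sptlc2, starts its synthesis in the endoplasmic reticulum. Sphingomyelin synthases then place a phosphocholine head group on ceramide, Sgms1 in the Golgi and Sgms2 mainly at the plasma membrane, while Ugcg adds glucose to begin the glycosphingolipids. Smpd1, the acid sphingomyelinase, returns sphingomyelin to ceramide, and Asah1, the acid ceramidase, splits ceramide in the lysosome. Smpdl3a and Smpdl3b are relatives of Smpd1 by sequence. Smpdl3b is anchored to the cell surface through a lipid and is known as a brake on Toll-like receptor signalling in macrophages, and Smpdl3a is a secreted protein that can act on nucleotides.

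Levels are CPM, read counts scaled to a common library size with TMM, given as mean ± SD with n = 5 libraries. Differences are log2 fold changes ± SE, tested with the edgeR quasi-likelihood test and called at an adjusted p under 0.05 over all genes of a fit. Total counts ran from 16913250 to 31481548 per library. All 6 macrophage markers had counts in every group, and their summed level was 2310 to 6917 CPM. Library lactate MHC-IIlo 5 stood apart, with a median correlation of 0.962 to its own group against 0.973 to 0.988 for the other 29 libraries. In bulk RNA, fewer cells of a type and less RNA per cell cannot be told apart.

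Promoters of 3 genes are printed to show what lies at the start of the pair that was higher with lactate and of the acid sphingomyelinase, whose level ran the other way between the subsets. RefSeq windows on GRCm38.p6 matched 7 of the 9 genes and run from 250 bases before to 50 after the start, 5′ to 3′ on the gene's strand. The Smpdl3b window is chr4:132757122-132757421 on the minus strand, with its RefSeq start 81 bases from the deposited gene start. The Sgms2 window is chr3:131491394-131491693 on the minus strand, the one of 6 for this gene that starts nearest the deposited gene start, at 32 bases. The Smpd1 window is chr7:105554110-105554409 on the plus strand. Capitals mark the E-box CACGTG, the GC box GGGCGG or the CCAAT box CCAAT on either strand.
Smpdl3b: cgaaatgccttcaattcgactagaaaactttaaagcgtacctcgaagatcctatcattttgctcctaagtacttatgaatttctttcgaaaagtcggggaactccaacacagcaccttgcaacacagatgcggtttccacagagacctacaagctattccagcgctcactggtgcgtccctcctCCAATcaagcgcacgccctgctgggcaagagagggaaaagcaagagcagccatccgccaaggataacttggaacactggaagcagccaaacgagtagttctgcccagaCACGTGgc
Sgms2: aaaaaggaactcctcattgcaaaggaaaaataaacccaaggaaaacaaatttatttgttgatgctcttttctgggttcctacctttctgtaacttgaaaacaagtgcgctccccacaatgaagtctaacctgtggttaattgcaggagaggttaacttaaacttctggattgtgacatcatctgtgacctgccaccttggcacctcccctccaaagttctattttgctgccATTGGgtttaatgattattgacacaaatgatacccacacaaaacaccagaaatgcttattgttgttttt
Smpd1: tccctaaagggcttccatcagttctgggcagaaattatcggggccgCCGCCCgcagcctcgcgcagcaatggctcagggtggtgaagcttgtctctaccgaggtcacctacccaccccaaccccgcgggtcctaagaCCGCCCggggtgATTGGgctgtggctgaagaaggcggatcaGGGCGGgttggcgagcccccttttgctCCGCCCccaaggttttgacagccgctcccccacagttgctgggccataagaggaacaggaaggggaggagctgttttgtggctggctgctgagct
The Smpdl3b window holds a CCAAT box at -66 to -62 and an E-box at 43 to 48, counted from the RefSeq start as 1. The Sgms2 window holds a CCAAT box on the other strand at -19 to -15, and only 1 CpG at 39% G and C. The Smpd1 window holds 4 GC boxes and a CCAAT box at 63% G and C, and neither of the other windows printed holds a GC box. Over 32817 RefSeq windows of this length, 7.149% held the E-box, 35.63% the GC box and 37.39% the CCAAT box. The TATA box TATAAA (13.62%) and the AP-1 site TGACTCA (5.205%), searched on both strands, had no match in these 3 windows. No 2 of the motifs searched share letters in these windows, and a match describes only the letters.

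**Figure D1:**
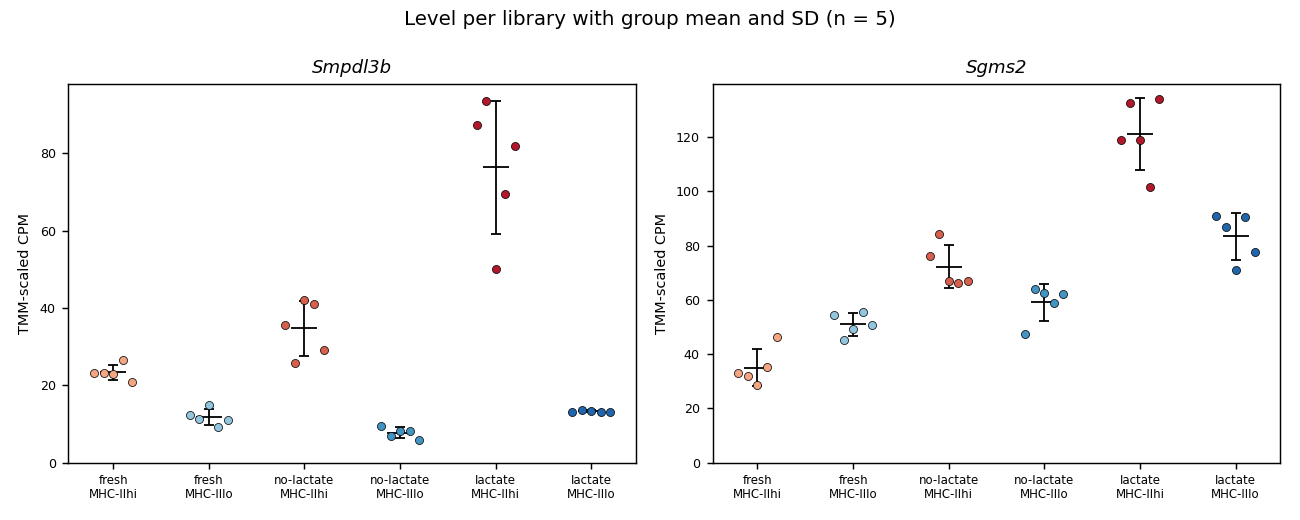
TMM-scaled CPM (vertical axis, from 0) of Smpdl3b and Sgms2 in each of the 30 libraries (points) by group (horizontal axis), with the group mean and SD. Smpdl3b is highest in lactate MHC-IIhi (76.4 CPM) and lowest in no-lactate MHC-IIlo (7.72 CPM), and Sgms2 runs from 35.0 CPM in fresh MHC-IIhi to 121 CPM in lactate MHC-IIhi.

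Smpdl3b (ENSMUSG00000028885, chromosome 4, 132732966 to 132757252, minus strand) was lower in MHC-IIlo than in MHC-IIhi macrophages in all 3 states. In fresh MHC-IIhi its level was 23.2, 23.1, 22.9, 26.4 and 20.9 CPM in libraries 1 to 5, and in fresh MHC-IIlo 12.2, 11.3, 14.8, 9.20 and 10.96 CPM. Every fresh MHC-IIhi library stood above every fresh MHC-IIlo library. The difference of MHC-IIlo from MHC-IIhi was -0.99 ± 0.13 (edgeR adjusted p = 8.92e-05), with means of 11.7 ± 2.06 and 23.3 ± 1.99 CPM.

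After 24 h without lactate the gap between the subsets was wider. No-lactate MHC-IIhi libraries 3 to 7 held Smpdl3b at 35.7, 25.8, 42.1, 41.0 and 29.1 CPM. No-lactate MHC-IIlo libraries 1, 3, 4, 5 and 6 held 9.56, 6.83, 8.22, 8.23 and 5.75 CPM. Here too no library of one subset reached the range of the other, and the difference was -2.16 ± 0.17 (edgeR adjusted p = 1.44e-08). Set against fresh cells, Smpdl3b rose in cultured MHC-IIhi (0.58 ± 0.15, edgeR adjusted p = 0.00154) and fell in cultured MHC-IIlo (-0.59 ± 0.15, edgeR adjusted p = 0.00217). In both subsets 1 or more cultured libraries lay within the fresh range. The difference between the culture effects of the subsets passed its own test, at -1.18 ± 0.21 (edgeR adjusted p = 6.72e-04). The no-lactate MHC-IIhi libraries, which enter each of these comparisons except culture in MHC-IIlo, also served to choose the gene.

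With lactate, the level of Smpdl3b was higher in both subsets than without it. Lactate MHC-IIlo libraries 1, 3, 4, 5 and 6 held 13.2, 13.7, 13.3, 13.02 and 13.2 CPM, from counts of 276 to 405. The spread (SD 0.252) was narrower than in any other group, and whether this is more than chance was not tested. All 5 libraries lay above the highest no-lactate MHC-IIlo library at 9.56 CPM. The rise was 0.78 ± 0.16 (edgeR adjusted p = 0.0235), from 7.72 ± 1.46 to 13.3 ± 0.252 CPM. In MHC-IIhi, lactate libraries 1, 3, 4, 5 and 6 held 87.2, 93.5, 50.1, 69.5 and 81.9 CPM, all above the highest no-lactate library at 42.1 CPM. Since this contrast chose the gene, its difference of 1.15 ± 0.16 is given without a test. With lactate in both subsets, MHC-IIlo differed from MHC-IIhi by -2.53 ± 0.17 (edgeR adjusted p = 2.28e-09), a comparison that shares the lactate MHC-IIhi libraries with the one that chose the gene.

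In order of mean level, Smpdl3b went from lactate MHC-IIhi through no-lactate MHC-IIhi, fresh MHC-IIhi, lactate MHC-IIlo and fresh MHC-IIlo to no-lactate MHC-IIlo. The libraries of neighbours in this order overlapped at 3 of the 5 steps. They did not overlap between lactate and no-lactate MHC-IIhi, nor between fresh MHC-IIhi and lactate MHC-IIlo. Every MHC-IIhi group thus had a higher mean than any MHC-IIlo group.

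The summed level of markers of dendritic cells, which also carry MHC class II, moved with the subset difference of Smpdl3b. Of 7 such markers, all had counts in fresh MHC-IIhi and 6 in fresh MHC-IIlo, where Xcr1 was at 0. Their summed level was 18.6 to 35.8 CPM in fresh MHC-IIhi and 2.33 to 4.34 CPM in fresh MHC-IIlo. Without lactate it was 93.4 to 276 CPM in MHC-IIhi and 0.501 to 4.33 CPM in MHC-IIlo. With lactate the sums were 93.8 to 271 CPM in MHC-IIhi and 0.865 to 1.198 CPM in MHC-IIlo, which lay within the ranges without lactate. In culture most of the MHC-IIhi sum was Ccr7, with means of 146 CPM without and 125 CPM with lactate. Flt3 followed at 29.1 and 22.4 CPM. Single markers did not all rise with culture. Cd209a went from 12.5 CPM in fresh to 0.0156 CPM in no-lactate MHC-IIhi, below 0.0994 CPM in no-lactate MHC-IIlo. Batf3 went from 3.99 to 2.21 CPM in MHC-IIhi. The part of dendritic cells in the differences of Smpdl3b was not tested.

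Sgms2 (ENSMUSG00000050931, chromosome 3, 131318985 to 131491411, minus strand), the sphingomyelin synthase of the plasma membrane, changed its order between the subsets from fresh to cultured cells. Fresh MHC-IIhi libraries 1 to 5 held 32.9, 32.1, 28.5, 35.3 and 46.2 CPM, and fresh MHC-IIlo libraries 54.4, 45.1, 49.4, 55.4 and 50.7 CPM. Only fresh MHC-IIhi 5 reached into the MHC-IIlo range. Sgms2 was higher in fresh MHC-IIlo by 0.54 ± 0.11 (edgeR adjusted p = 0.00222).

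Without lactate the order was turned. No-lactate MHC-IIhi libraries 3 to 7 held Sgms2 at 76.3, 84.3, 66.9, 66.4 and 66.97 CPM, and no-lactate MHC-IIlo libraries 47.5, 64.2, 62.4, 58.9 and 62.3 CPM. The subsets did not overlap, but the difference of MHC-IIlo from MHC-IIhi, -0.28 ± 0.11, missed the threshold (edgeR adjusted p = 0.0644, DESeq2 adjusted p = 0.0399). Culture raised Sgms2 in MHC-IIhi from 35.0 ± 6.72 to 72.2 ± 7.95 CPM (1.05 ± 0.12, edgeR adjusted p = 8.44e-08), with no overlap. In MHC-IIlo it went from 51.0 ± 4.14 to 59.1 ± 6.74 CPM (0.22 ± 0.11, edgeR adjusted p = 0.107), and passed when no-lactate MHC-IIlo 1 was left out (0.29, adjusted p = 0.0322). The culture effects of the subsets differed by -0.83 ± 0.16 (edgeR adjusted p = 0.00142). As for Smpdl3b, the no-lactate MHC-IIhi libraries enter each of these comparisons except culture in MHC-IIlo, and also served to choose the gene.

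With lactate, Sgms2 rose in MHC-IIlo. Lactate MHC-IIlo libraries 1, 3, 4, 5 and 6 held 91.1, 86.9, 71.1, 90.4 and 77.6 CPM, all above the highest library without lactate at 64.2 CPM. The difference was 0.50 ± 0.11 (edgeR adjusted p = 0.0239). In MHC-IIhi the lactate libraries held 119, 132, 119, 101.5 and 134 CPM, above the highest library without lactate at 84.3 CPM. This contrast chose the gene, and its difference of 0.76 ± 0.11 is a description. With lactate, MHC-IIlo was lower than MHC-IIhi by -0.54 ± 0.11 with no overlap (edgeR adjusted p = 8.52e-04), in libraries of which 5 also served to choose the gene.

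Smpdl3b and Sgms2 are the 2 of the 9 genes called for lactate in MHC-IIlo, where 1.49% of all genes tested were called of which 0.905% were higher and 0.581% lower. That contrast shares the fit, and no library, with the one that chose them. Of the 10 fits that left out 1 library, 5 lost the call of Smpdl3b and 4 that of Sgms2, with the direction kept in each. For Smpdl3b the losses came without no-lactate MHC-IIlo 3 (edgeR adjusted p = 0.0667), 5 (0.0562) or 6 (0.0691) and without lactate MHC-IIlo 3 (0.0551) or 4 (0.0563). For Sgms2 they came without no-lactate MHC-IIlo 1 (edgeR adjusted p = 0.0683), 5 (0.0618) or 6 (0.0535) and without lactate MHC-IIlo 3 (0.0552). Without lactate MHC-IIlo 5, the library that stood apart, both calls held (0.0385 for Smpdl3b and 0.0457 for Sgms2). Whether lactate acted more on one subset was not tested, and the values stand side by side above.

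The other 7 enzymes gave no call for lactate in MHC-IIlo. Their differences ran from -0.53 ± 0.31 for Smpdl3a (edgeR adjusted p = 0.378) to 0.31 ± 0.15 for Ugcg (edgeR adjusted p = 0.295). Without lactate MHC-IIlo 5 these were -0.28 (adjusted p = 0.594) and 0.12 (adjusted p = 0.694). In MHC-IIhi, where 0.206% of all genes were called higher and 0.0441% lower, the same 7 differed by -0.18 for Smpdl3a to 0.14 for Ugcg, as a description. In each of these 14 contrasts the libraries with and without lactate overlapped. The share of all genes that overlap in this way was not counted, so whether the overlap is particular to these enzymes cannot be told.

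The summed level of neutrophil markers, most of it Mmp8, was higher with lactate in MHC-IIhi and overlapped in MHC-IIlo. Their summed level over 7 markers was 668 to 993 CPM without and 1546 to 2261 CPM with lactate in MHC-IIhi, and 689 to 977 against 396 to 1592 CPM in MHC-IIlo. Mmp8, which codes for a collagenase, made up most of it, with a mean of 767 CPM without and 1782 CPM with lactate in MHC-IIhi and 836 against 1168 CPM in MHC-IIlo. S100a8 had means of 9.96 CPM without and 15.2 CPM with lactate in MHC-IIhi and 14.5 against 17.7 CPM in MHC-IIlo. Ly6g was at 0 with lactate in both subsets, and S100a9 had means of 0.0140 to 0.0597 CPM in the 4 cultured groups. Cxcr2 was near 0 and lower with lactate, at 0.0471 against 0.0326 CPM in MHC-IIhi and 0.0975 against 0.0157 CPM in MHC-IIlo. Retnlg was also at 0 in both cultured MHC-IIlo groups and Camp in lactate MHC-IIlo. The part of these markers in the values of Smpdl3b and Sgms2 was not tested.

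**Figure D2:**
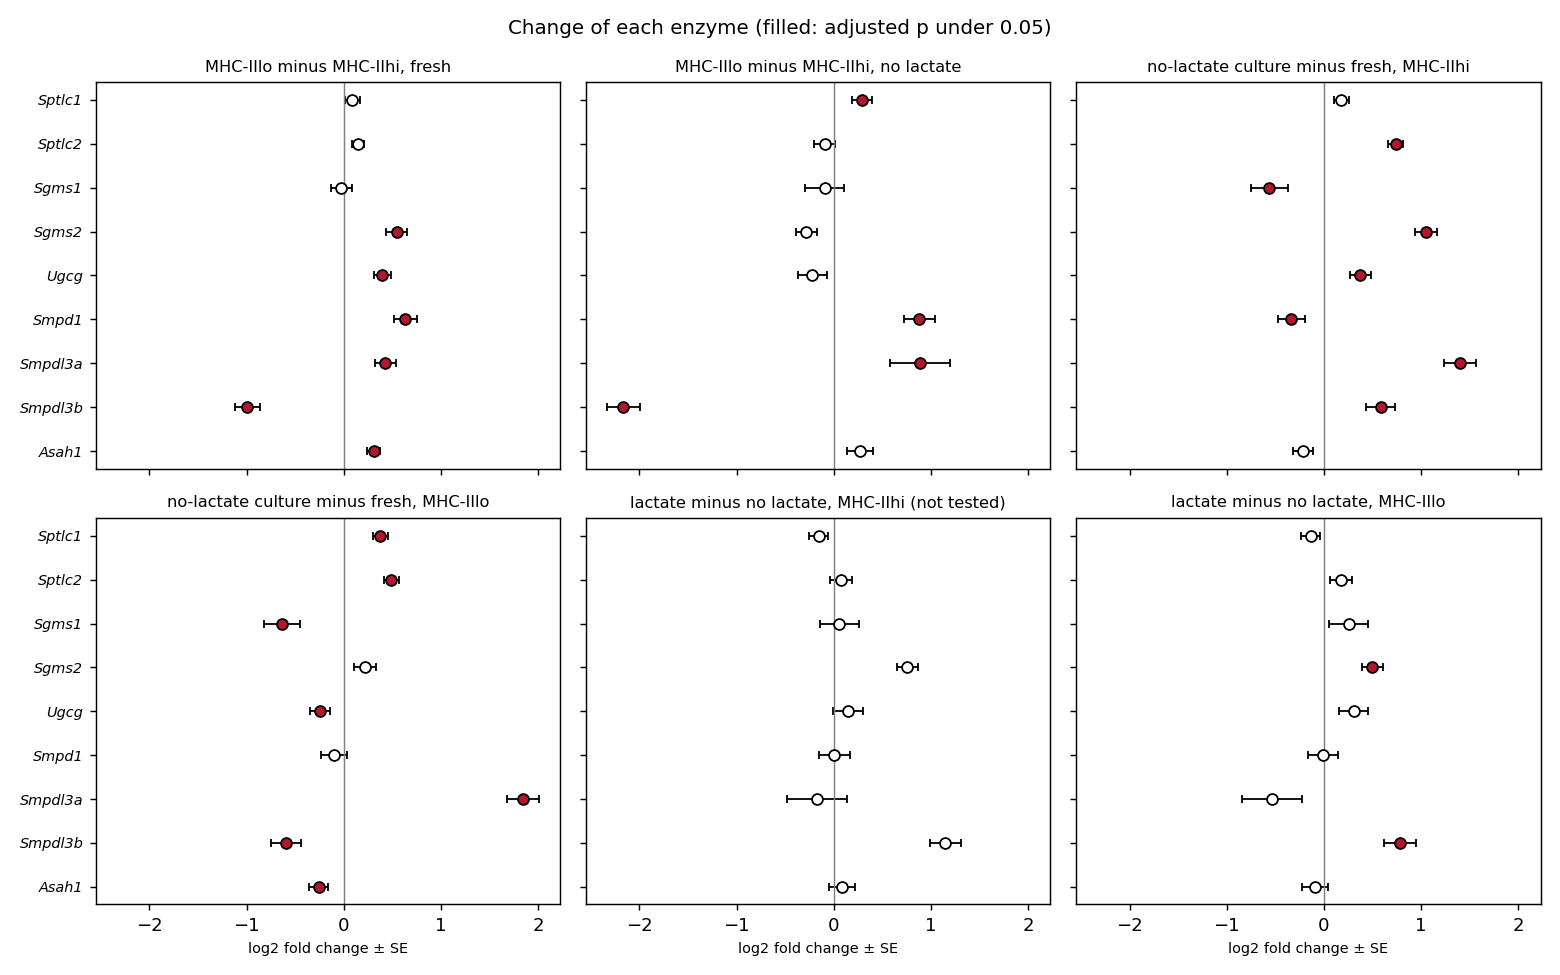
Log2 fold change ± SE (horizontal axis) of the 9 enzymes (vertical axis) in 6 comparisons, filled where the edgeR adjusted p was under 0.05. For lactate in MHC-IIhi nothing was tested, so open points there carry no verdict. Smpdl3b and Sgms2 are the pair filled for lactate in MHC-IIlo (0.78 and 0.50).

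Sgms1 (ENSMUSG00000040451, chromosome 19, 32122727 to 32389714, minus strand), the Golgi sphingomyelin synthase, did not follow Sgms2. It shares 10 bases of exon with the antisense gene 2700046G09Rik, and reads there could not be told apart without strand. In fresh MHC-IIhi and MHC-IIlo its level was 58.8 ± 7.86 and 57.7 ± 9.05 CPM, with no call between the subsets (-0.03 ± 0.11, edgeR adjusted p = 0.890). Culture without lactate lowered it to 39.6 ± 14.5 CPM in MHC-IIhi (-0.56 ± 0.19, edgeR adjusted p = 0.0127) and to 36.9 ± 2.86 CPM in MHC-IIlo (-0.63 ± 0.19, edgeR adjusted p = 0.00621). In MHC-IIlo the fresh and cultured libraries did not overlap. With lactate it was 40.9 ± 9.96 CPM in MHC-IIhi and 44.0 ± 4.41 CPM in MHC-IIlo.

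Per kilobase of gene length, the level of Sgms2 over that of Sgms1 within a library was 0.887 to 1.12 in fresh MHC-IIhi and 1.28 to 1.61 in fresh MHC-IIlo. Without lactate the ratio was 2.00 to 4.98 in MHC-IIhi and 2.15 to 3.15 in MHC-IIlo. With lactate it was 3.60 to 6.58 in MHC-IIhi and 3.04 to 3.24 in MHC-IIlo. For the deposited lengths, 6227 bases for Sgms2 and 10299 for Sgms1, every cultured library thus had more Sgms2 per length than Sgms1. Each cultured library also lay above all fresh libraries in this ratio. The ratios with and without lactate overlapped in both subsets.

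**Figure D3:**
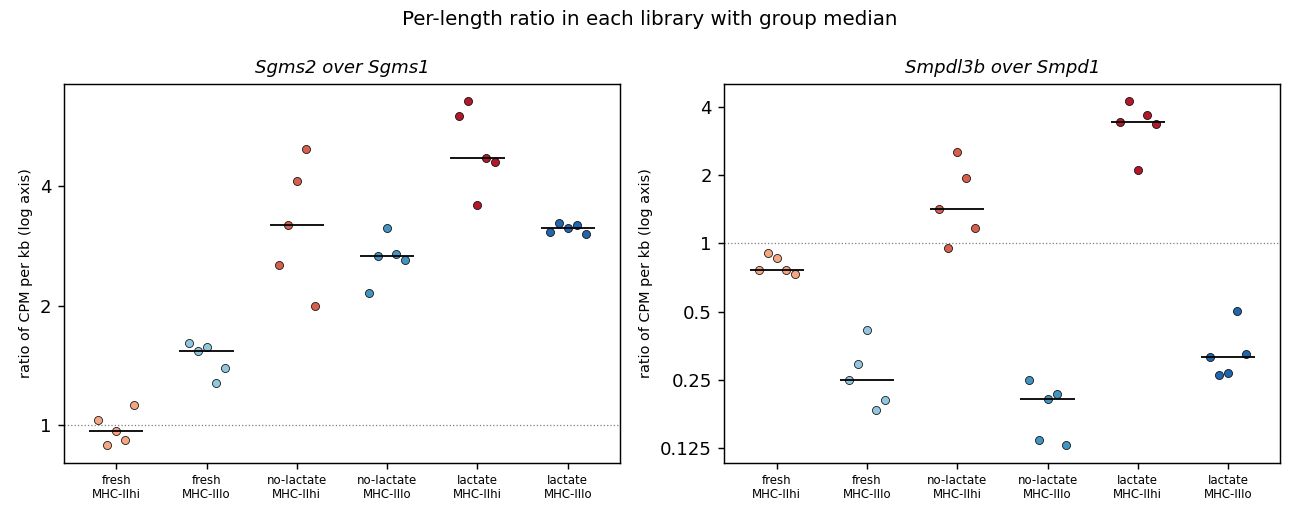
Ratio of CPM per kb (vertical axis, log scale) of Sgms2 over Sgms1 and of Smpdl3b over Smpd1 in each library (points) by group (horizontal axis), with the group median as a line and equality dotted. Median Sgms2 over Sgms1 is 0.964 in fresh MHC-IIhi and 4.71 in lactate MHC-IIhi, and median Smpdl3b over Smpd1 is 0.207 in no-lactate MHC-IIlo and 3.44 in lactate MHC-IIhi.

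Smpd1 (ENSMUSG00000037049, chromosome 7, 105554360 to 105558388, plus strand), the acid sphingomyelinase, was higher in MHC-IIlo than in MHC-IIhi in every state. Fresh MHC-IIhi libraries held 36.7, 30.7, 31.9, 41.7 and 34.3 CPM and fresh MHC-IIlo libraries 58.8, 46.0, 42.9, 60.0 and 64.5 CPM, without overlap. The difference was 0.63 ± 0.11 (edgeR adjusted p = 0.00110). Without lactate MHC-IIlo had a mean of 50.6 ± 6.30 CPM and MHC-IIhi one of 27.6 ± 5.02 CPM (0.88 ± 0.16, edgeR adjusted p = 3.57e-04). With lactate they were 50.3 ± 12.2 and 27.5 ± 3.04 CPM (0.87 ± 0.16, edgeR adjusted p = 4.35e-04), and the lowest lactate MHC-IIlo library, at 30.96 CPM, still lay above the highest MHC-IIhi library at 30.4 CPM.

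Culture moved Smpd1 little. In MHC-IIhi it fell by 0.34 ± 0.14 on the log2 scale (edgeR adjusted p = 0.0372). This call was lost without fresh MHC-IIhi 1 (adjusted p = 0.0676), 4 (0.117) or 5 (0.0523) and without no-lactate MHC-IIhi 5 (0.109) or 6 (0.0823), and in the FPKM table the difference was -0.13 (limma adjusted p = 0.337). In MHC-IIlo its difference was -0.10 ± 0.13 (edgeR adjusted p = 0.551).

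Smpdl3b and Smpd1 ran opposite ways between the subsets. Per kilobase, the level of Smpdl3b was 0.732 to 0.905 times that of Smpd1 in fresh MHC-IIhi libraries and 0.184 to 0.415 times in fresh MHC-IIlo. Without lactate the ratio was 0.954 to 2.54 in MHC-IIhi and 0.129 to 0.251 in MHC-IIlo. With lactate it was 2.11 to 4.25 and 0.265 to 0.505. The subsets did not overlap in any state, and in MHC-IIlo Smpd1 stayed above Smpdl3b in each of the 15 libraries.

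Smpdl3a (ENSMUSG00000019872, chromosome 10, 57794335 to 57811830, plus strand), the secreted relative, rose most of the 9 with culture. In MHC-IIhi its level went from 93.4, 83.8, 90.2, 117 and 116 CPM in fresh libraries to 285, 297, 226, 351 and 159 CPM without lactate. In MHC-IIlo it went from 141, 112, 119, 144 and 157 CPM to 496, 514, 394, 476 and 531 CPM. No cultured library without lactate lay within the fresh range of its subset. The rises were 1.40 ± 0.16 (edgeR adjusted p = 1.64e-07) in MHC-IIhi and 1.85 ± 0.16 (edgeR adjusted p = 3.58e-09) in MHC-IIlo, and the difference between them gave no call (0.45 ± 0.22, edgeR adjusted p = 0.204).

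Between subsets, Smpdl3a was higher in fresh MHC-IIlo by 0.43 ± 0.11 (edgeR adjusted p = 0.00972), which was no longer called when 1 fit held all 30 libraries (adjusted p = 0.290). Without lactate MHC-IIlo held 482 ± 53.4 CPM and MHC-IIhi 264 ± 73.6 CPM (0.88 ± 0.31, edgeR adjusted p = 0.0466). The groups did not overlap, yet 9 of the 10 fits that left out 1 library lost this call, with adjusted p of 0.0550 to 0.124. The exception was no-lactate MHC-IIhi 6, without which it was 0.0410. With lactate the MHC-IIlo libraries held 479, 395, 348, 93.2 and 353 CPM and the MHC-IIhi libraries 328, 296, 224, 175 and 135 CPM. The lowest was lactate MHC-IIlo 5, the library that stood apart. The difference was 0.52 ± 0.31 (edgeR adjusted p = 0.237), and 0.77 (adjusted p = 0.0146) without lactate MHC-IIlo 5.

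Asah1 (ENSMUSG00000031591, chromosome 8, 41340197 to 41374773, minus strand), the acid ceramidase, was abundant in all groups. Fresh MHC-IIlo libraries held 459, 439, 417, 491 and 454 CPM and fresh MHC-IIhi libraries 359, 327, 351, 394 and 399 CPM. They did not overlap, and the difference was 0.31 ± 0.07 (edgeR adjusted p = 0.00493). In the FPKM table it was 0.05 (limma adjusted p = 0.337), and with all 30 libraries in 1 fit the adjusted p was 0.0732. The FPKM columns share the same median of FPKM times length. There Asah1 had the same value, 124.597, in fresh MHC-IIlo 1, 2, 3 and 4, so the FPKM result is not a separate measurement of the level.

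Without lactate Asah1 averaged 376 ± 26.5 CPM for MHC-IIlo and 314 ± 51.8 CPM for MHC-IIhi, with no call (0.27 ± 0.14, edgeR adjusted p = 0.177). It fell with culture in MHC-IIlo (-0.26 ± 0.10, edgeR adjusted p = 0.0313). That call was lost without fresh MHC-IIlo 1 (adjusted p = 0.0577), 4 (0.0803) or 5 (0.0517) and without no-lactate MHC-IIlo 1 (0.0782) or 4 (0.0742). In MHC-IIhi the difference was -0.22 ± 0.10 (edgeR adjusted p = 0.0639). It passed without fresh MHC-IIhi 2 (adjusted p = 0.0389) or no-lactate MHC-IIhi 4 (0.0370) or 6 (0.0328), and in the FPKM table (-0.40, limma adjusted p = 6.45e-06). With lactate MHC-IIlo held 353 ± 66.9 CPM and MHC-IIhi 330 ± 35.5 CPM (0.10 ± 0.14, edgeR adjusted p = 0.666).

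Ugcg (ENSMUSG00000028381, chromosome 4, 59189257 to 59222833, plus strand), the glucosylceramide synthase, moved opposite ways with culture in the subsets. Fresh MHC-IIhi libraries held 68.7, 53.9, 63.3, 66.7 and 72.8 CPM, against 74.5, 88.9, 87.8, 80.5 and 88.3 CPM without lactate, with no overlap. The rise was 0.38 ± 0.10 (edgeR adjusted p = 0.00370), and 0.15 in the FPKM table (limma adjusted p = 0.159). Fresh MHC-IIlo libraries held 89.7, 81.1, 72.0, 96.6 and 88.7 CPM, against 63.1, 58.1, 76.6, 80.2 and 80.7 CPM without lactate.

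That fall of Ugcg in MHC-IIlo, -0.25 ± 0.10 (edgeR adjusted p = 0.0474), was lost without fresh MHC-IIlo 1 (adjusted p = 0.0944), 4 (0.131) or 5 (0.0873) and without no-lactate MHC-IIlo 1 (0.126) or 3 (0.144). In the FPKM table it was -0.46 (limma adjusted p = 1.91e-04). The difference between the culture effects was -0.62 ± 0.15 (edgeR adjusted p = 0.00632). In fresh cells Ugcg was higher in MHC-IIlo by 0.40 ± 0.09 (edgeR adjusted p = 0.00437). In culture the subsets overlapped, at 84.0 ± 6.31 CPM in MHC-IIhi and 71.8 ± 10.4 CPM in MHC-IIlo without lactate (-0.22 ± 0.15, edgeR adjusted p = 0.330), and at 92.3 ± 11.96 and 88.7 ± 26.05 CPM with it (-0.06 ± 0.15, edgeR adjusted p = 0.819).

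Of the pair that forms serine palmitoyltransferase, Sptlc2 (ENSMUSG00000021036, chromosome 12, 87305058 to 87388355, minus strand) rose with culture in both subsets. In MHC-IIhi it went from 159 ± 9.84 to 264 ± 28.4 CPM (0.74 ± 0.08, edgeR adjusted p = 4.27e-08) and in MHC-IIlo from 176 ± 9.74 to 246 ± 10.7 CPM (0.49 ± 0.08, edgeR adjusted p = 1.36e-05). Fresh and cultured libraries overlapped in neither subset. The culture effects differed by -0.25 ± 0.11 (edgeR adjusted p = 0.147), and by -0.31 without no-lactate MHC-IIhi 5 (adjusted p = 0.0304). Between subsets Sptlc2 gave no call in fresh cells (0.15 ± 0.06, edgeR adjusted p = 0.0864), and passed without fresh MHC-IIhi 5 (0.20, adjusted p = 0.0468). In culture the subsets were at most 0.10 apart.

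Sptlc1 (ENSMUSG00000021468, chromosome 13, 53332716 to 53377365, minus strand) moved less. In MHC-IIlo it rose with culture from 58.6 ± 4.34 to 75.5 ± 4.798 CPM without overlap (0.37 ± 0.08, edgeR adjusted p = 2.91e-04). In MHC-IIhi it went from 55.2 ± 5.56 to 62.0 ± 3.46 CPM (0.18 ± 0.08, edgeR adjusted p = 0.0538), and passed without fresh MHC-IIhi 4 (adjusted p = 0.0157) or no-lactate MHC-IIhi 5 (0.0309). It was higher in MHC-IIlo than in MHC-IIhi without lactate (0.29 ± 0.10, edgeR adjusted p = 0.0431), but each of the 10 fits that left out 1 library lost this call, with adjusted p of 0.0604 to 0.125.

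With lactate Sptlc1 averaged 68.7 ± 9.26 CPM for MHC-IIlo and 55.2 ± 7.23 CPM for MHC-IIhi (0.31 ± 0.10, edgeR adjusted p = 0.0298). This call was lost without lactate MHC-IIhi 5 (adjusted p = 0.0876) or 6 (0.0770) or lactate MHC-IIlo 1 (0.0528), 3 (0.0913) or 4 (0.0686). Per kilobase, the level of Sptlc2 over that of Sptlc1 was 0.818 to 1.04 in the 10 fresh libraries, near equality for the deposited lengths. Without lactate it was 1.22 to 1.41 for MHC-IIhi and 0.999 to 1.09 for MHC-IIlo. With lactate it was 1.46 to 1.77 for MHC-IIhi and 1.18 to 1.49 for MHC-IIlo.

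**Figure D4:**
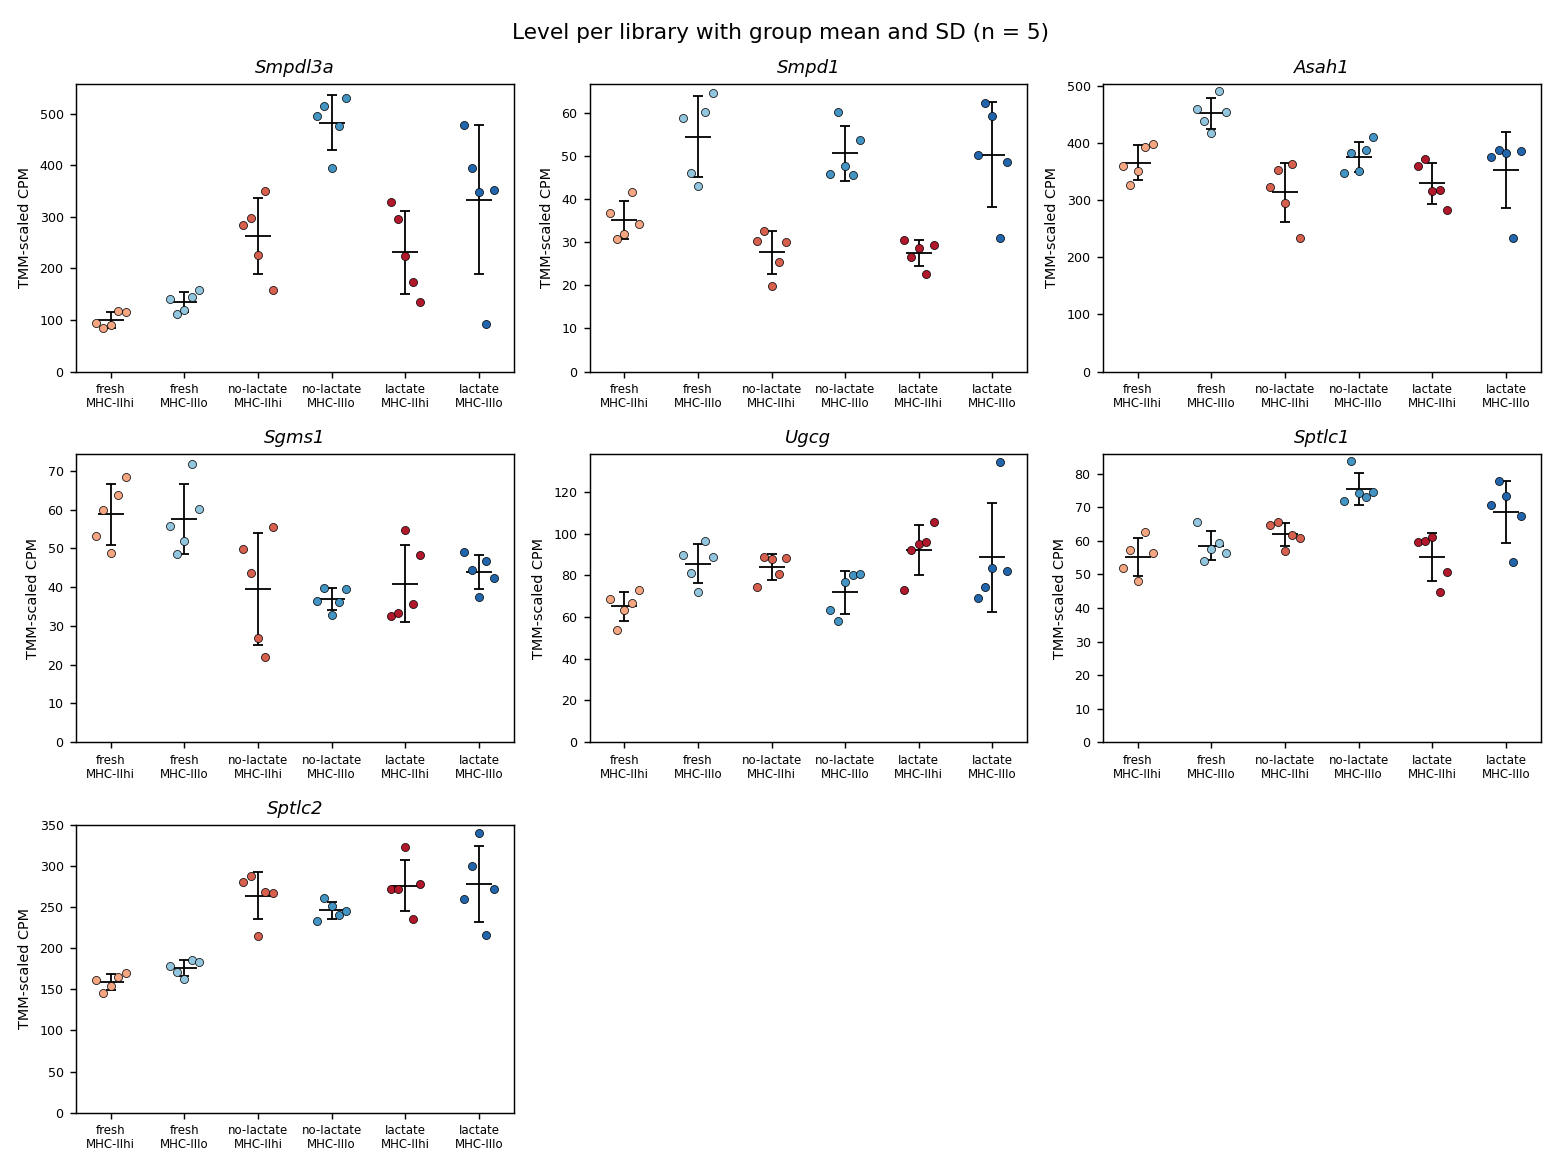
TMM-scaled CPM (vertical axis, from 0) of the other 7 enzymes in each library (points) by group (horizontal axis), with the group mean and SD. Mean Sptlc2 is 159 and 176 CPM in the fresh groups and 246 to 278 CPM in the cultured ones, and mean Smpd1 is 27.5 to 35.1 CPM in the MHC-IIhi groups and 50.3 to 54.4 CPM in the MHC-IIlo ones.

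Counted together, 6 of the 9 enzymes differed between fresh subsets, against 29.2% of all genes tested. Smpdl3a, Smpd1, Sgms2, Ugcg and Asah1 were higher in MHC-IIlo (as were 1790 of all 12787 genes tested) and Smpdl3b was lower (15.2%). Without lactate 4 of 9 were called (20.8% of all genes), with Smpdl3a, Smpd1 and Sptlc1 higher (9.20%) and Smpdl3b lower (11.6%). With lactate 4 of 9 were called (22.4% of all genes), with Smpd1 and Sptlc1 higher (9.13%) and Smpdl3b and Sgms2 lower (13.3%). The lactate MHC-IIhi libraries in this comparison also served to choose Smpdl3b and Sgms2. The calls of that pair are not independent of the choice, so this count cannot be weighed against all genes.

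Culture called 7 of the 9 in MHC-IIhi, where 62.0% of all genes were called, and 7 in MHC-IIlo, where 57.5% were. Both shares of members are not far above the background. In MHC-IIhi 5 rose (31.6% of all genes) and 2 fell (30.4%), and in MHC-IIlo 3 rose (27.6%) and 4 fell (29.9%). Smpdl3a and Sptlc2 rose and Sgms1 fell in both subsets. For the difference between culture effects 3 of 9 were called (14.3% of all genes), each with a lower effect in MHC-IIlo (8.27%), and none with a higher one (6.03%, and none of the 9 at an unadjusted p under 0.05 in that direction). The third of these is built from the other two. The no-lactate MHC-IIhi libraries, which enter the subset comparison without lactate, the culture comparison in MHC-IIhi and the difference between culture effects, also served to choose Smpdl3b and Sgms2.

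A wider list of 69 sphingolipid genes, the 9 among them, was sorted by role. In fresh cells 24 of the 58 tested were higher in MHC-IIlo and 9 lower, with a median difference of 0.25 against 0.00 over all genes. Of all 12787 genes tested, 1790 were higher and 1947 (15.2%) lower. Of 17 lysosomal and other breakdown genes, 10 were higher and 3 lower. Galc, the galactosylceramidase, was higher (1.08, edgeR adjusted p = 2.07e-05), while Gm2a, the GM2 activator, was lower (-0.94, edgeR adjusted p = 1.95e-06). St3gal5, which makes the ganglioside GM3, was lower in MHC-IIlo (-1.84, edgeR adjusted p = 5.33e-06), and Plekha8, a glycolipid transfer protein, was higher (1.06, edgeR adjusted p = 0.00640). Among receptors for sphingosine 1-phosphate, S1pr1 was higher (1.86, edgeR adjusted p = 2.71e-05) and S1pr4 lower (-1.85, edgeR adjusted p = 8.09e-04).

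Without lactate 10 of 57 list genes were higher in MHC-IIlo and 4 lower (median 0.18 against -0.01 over all genes), where 9.20% and 11.6% of all genes were. Galc (1.04), the saposin precursor Psap (0.69) and the alpha-galactosidase Gla (0.66) were higher, and Cptp (-0.35), the sphingosine kinase Sphk1 (-0.84) and the sphingomyelinase Smpd5 (-1.21) lower. With lactate 7 of 57 were higher and 5 lower (median 0.13 against 0.02), where 9.13% and 13.3% of all genes were. Those lower include Smpdl3b and Sgms2, which the lactate MHC-IIhi libraries also served to choose. In both cultured states the share of the list called was near that of all genes (20.8% and 22.4%). Gla (0.60) and Plekha8 (0.54) were among those higher, and the ceramide synthase Cers6 (-0.51), Sphk1 (-0.58) and Smpd5 (-1.51) among those lower.

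Culture without lactate raised 29 and lowered 16 of the 59 list genes tested in MHC-IIhi (median 0.35 against 0.01), and raised 24 and lowered 20 in MHC-IIlo (median -0.04 against -0.01). Of all genes, 31.6% rose and 30.4% fell in MHC-IIhi, and 27.6% rose and 29.9% fell in MHC-IIlo. Gla rose by 2.53 in MHC-IIhi and 2.32 in MHC-IIlo, and the receptor S1pr2 by 2.43 and 2.28. S1pr1 rose by 3.02 in MHC-IIhi and St3gal5 by 2.25 in MHC-IIlo. The neutral sphingomyelinase Smpd3 had a difference of -4.25 in MHC-IIhi and -3.47 in MHC-IIlo, and S1pr4 of -2.52 and -2.19. Gm2a fell by 2.08 in MHC-IIhi, and S1pr3 fell by 3.01 in MHC-IIlo. The culture effects of the subsets differed for 12 of 59 (14.3% of all genes), with St3gal5 (2.11) and Psap (0.71) among those with a higher effect in MHC-IIlo and S1pr1 (-2.24), Smpd5 (-1.29) and Npc1 (-0.61) among those with a lower one. For the largest of these values, Smpd3 in cultured MHC-IIhi, the level was 0.0944 CPM, with 1 or more libraries at 0. S1pr4 was also low, at 0.346 CPM in no-lactate MHC-IIhi and 0.116 CPM in no-lactate MHC-IIlo. S1pr3 was at 0.696 CPM in no-lactate MHC-IIlo, from 5.67 ± 3.86 CPM in fresh MHC-IIlo.

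**Figure D5:**
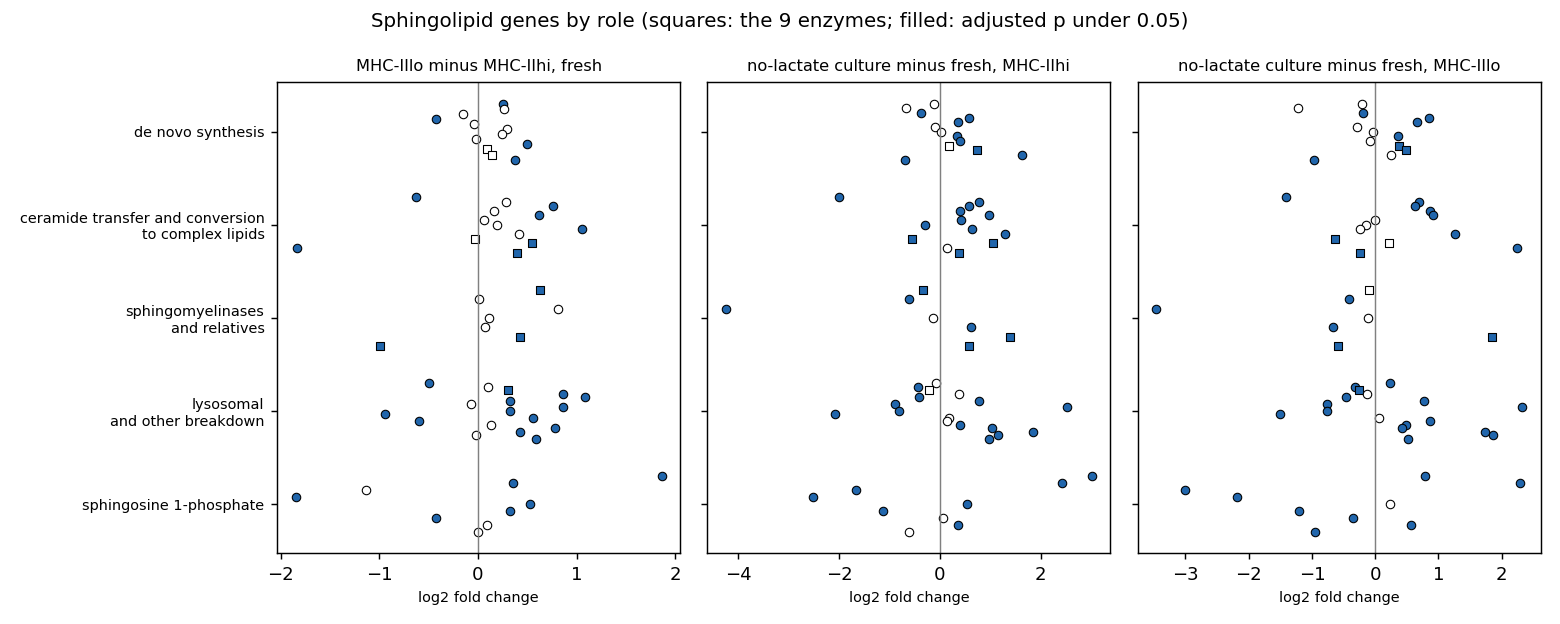
Log2 fold change (horizontal axis) of the tested sphingolipid genes by role (vertical axis) in 3 comparisons, with squares for the 9 enzymes and filled points where the edgeR adjusted p was under 0.05. Of 17 breakdown genes, 10 are filled to the right in fresh cells, and Smpd3 lies farthest left in both culture panels (-4.25 and -3.47).

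For lactate in MHC-IIlo, where 1.49% of all genes were called, edgeR called none of the 48 other list genes tested. Of these, 14 had an unadjusted p under 0.05, as did 2373 of all 13593 genes. DESeq2 called only St3gal5 (-1.31, adjusted p = 0.0223), as did edgeR with all 30 libraries in 1 fit (adjusted p = 0.0294). Without lactate MHC-IIlo 5, edgeR called Sphk1 (0.62, adjusted p = 0.0493), and without lactate MHC-IIlo 1 it called St3gal5, B4galt6 and Sphk1. In MHC-IIhi, where 0.250% of all genes were called, edgeR called none of the 48, with 3 at an unadjusted p under 0.05 (1342 of all genes), and DESeq2 called Smpd5 (0.97, adjusted p = 0.00177). Smpd5, a sphingomyelinase with low counts, had means of 4.99 ± 1.57 CPM without and 9.80 ± 2.18 CPM with lactate in MHC-IIhi, and of 2.15 ± 0.300 and 3.45 ± 0.650 CPM in MHC-IIlo. The limma fits on the FPKM table called none of them in MHC-IIlo, with 16 or 17 at an unadjusted p under 0.05.

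Genes most like the pair in level across libraries are given as a description, since they share libraries, depth and groups. Over the 30 libraries and 8473 genes compared, Fpr2, a formyl peptide receptor, was nearest to Smpdl3b (Pearson r = 0.93), followed by Nlrc4 (0.91), an inflammasome receptor, and Alas1 (0.90), an enzyme of haem synthesis. Over the 20 cultured libraries the nearest were Itga1 (0.97), an integrin chain, Acpp (0.96) and Lrrc16a (0.95). Fpr2 had means of 63.5 ± 21.7 CPM in no-lactate and 103 ± 29.97 CPM in lactate MHC-IIhi, and of 12.5 ± 4.75 and 17.7 ± 6.04 CPM in MHC-IIlo. For Sgms2 the nearest over 30 libraries were Npepps (0.95), a cytosolic aminopeptidase, Jag1 (0.92), a Notch ligand, and Serpinb2 (0.92). Over the cultured libraries they were Npepps (0.92), Olfml2b (0.86) and Pik3c2a (0.85). Npepps went from 163 ± 11.2 to 212 ± 15.3 CPM with lactate in MHC-IIhi and from 145 ± 9.96 to 176 ± 8.50 CPM in MHC-IIlo.

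Correlations among the 9 enzymes over the 30 libraries differed from those of deviations from the group means, in either direction. Smpdl3b and Smpd1 had r = -0.82, and -0.32 for deviations from the group means. Sgms2 and Sptlc2 had r = 0.81, and 0.21 for deviations. Smpd1 and Sptlc2 had r = -0.05, and 0.84 for deviations. Lactate MHC-IIlo 5 was lowest of its group for both of these genes (30.96 and 217 CPM). Smpdl3a and Asah1 had r = 0.13, and 0.92 for deviations, and lactate MHC-IIlo 5 was lowest of its group for both genes (93.2 and 234 CPM). These values are descriptions over libraries that share groups and depth.

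Markers of the other cell types checked are given for all 6 groups. Fibroblast markers (6 genes) summed to 16.99 to 106 CPM. B cell markers (4), all with counts in each group, were higher in the MHC-IIhi groups, at 8.69 to 17.4 CPM against 0.106 to 2.097 CPM in fresh cells, 1.31 to 2.82 against 0.152 to 0.721 CPM without lactate, and 0.557 to 2.25 against 0.0799 to 0.400 CPM with it. T and NK cell markers (6) were also higher there, at 8.70 to 12.1 against 1.96 to 4.49 CPM in fresh cells, 4.91 to 13.3 against 0.790 to 4.52 CPM without lactate, where Klrb1c was at 0 in MHC-IIhi, and 3.08 to 7.30 against 0.479 to 3.03 CPM with it. Epithelial markers (4) summed to 506 to 580 CPM in fresh MHC-IIhi and 138 to 281 CPM in fresh MHC-IIlo, mostly Cdh1, with Epcam and Krt18 at 0 in fresh MHC-IIlo, and to 34.2 to 84.2 CPM in culture. Endothelial markers (3) summed to 91.8 to 129 CPM in fresh cells and 87.8 to 647 CPM in culture, where Kdr had means of 203 to 384 CPM. Their part in the differences of the 9 was not tested.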

How the data were processed

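RNA of 30 libraries was analysed from 2 deposited tables. Per the submitters' processing notes the tools were Trimmomatic, STAR and featureCounts on GRCm38, with versions not given in the sources used here. The first table, as deposited by the authors, holds raw read counts per gene and the gene length. The second table, per the file headers, holds FPKM, here of 13778 genes (29.6%), and the authors' filter is not given in the sources used here. Its FPKM times length had the same median in every column.

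Counts were scaled with TMM, filtered with filterByExpr and tested with edgeR 4.0.16 (quasi-likelihood, 2-sided) in R 4.3.3, with Benjamini-Hochberg adjustment over all genes of a fit. Fits used the 10 fresh libraries, the 20 cultured ones, or the 20 without lactate. The log2 fold changes of the FPKM table use log2(FPKM + 1) and limma 3.58.1, and understate changes of low genes. Levels are CPM over all 30 libraries, with a further division by gene length in kilobases for ratios between genes. Which transcripts of a gene were present was not determined, so the size of these ratios depends on the deposited lengths. Depth limits the precision of low genes, and SDs cover the spread between libraries.

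The members, the list of 69 genes, the markers and the tests were chosen with earlier results of these data known. Named besides the members were up to 3 risen and 3 fallen list genes with the largest change per tested comparison, the 3 nearest genes of Smpdl3b and of Sgms2 (mean log2 CPM of at least 3), and Smpd5 and St3gal5 for lactate, chosen after their values were seen. Some genes that this rule names are not reported here. Alternatives were RLE size factors, no filter, DESeq2 1.42.0, all 30 libraries in 1 fit, FPKM with pseudocounts of 1 and 0.1 and without a filter, a replicate block and leaving out each library. Added after seeing the data were a block on the header number and fits that drop lactate MHC-IIlo 5. Cultured columns could be placed in a group and not with 1 sample record. No libraries of a group were identical, with a chi-square per degree of freedom of 9.55 to 258. The edgeR steps were checked on simulated counts.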

Additional observations from a re-analysis of the deposited data

Results flagged for a closer look

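Of 54 groups of 5 libraries checked, 4 held a library far from the others of its group, and chance gives this in about 1 group of 20. Asah1 in lactate MHC-IIlo 5 was at 234 CPM, against 376 CPM in the nearest library of that group. Ugcg in the same library was at 134 CPM, against 83.6 CPM in the nearest. Sptlc2 in no-lactate MHC-IIhi 5 was at 215.55 CPM, below the nearest at 268 CPM. Sptlc1 in no-lactate MHC-IIlo 3 was at 83.9 CPM, above the nearest at 74.6 CPM.

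For 3 genes the effect of culture differed between the subsets by the interaction test of edgeR. The effect in MHC-IIlo minus that in MHC-IIhi was -1.18 for Smpdl3b, -0.83 for Sgms2 and -0.62 for Ugcg on the log2 scale. They rest in part on the no-lactate MHC-IIhi libraries, which also served to choose Smpdl3b and Sgms2.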

How the results depend on the processing

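Of the alternatives for single members, 1078 kept the direction and the side of the threshold, 70 lost a call, 23 gained one and 35 reversed the sign, of which each was a value without a call. The causes were not tested. Depth limits low genes of the list such as Smpd3 and S1pr4 more than the 9 enzymes.

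In the FPKM fits, Ugcg with lactate between subsets was 0.0171 (pseudocount 1) or 0.0164 (0.1), Asah1 for lactate in MHC-IIlo 0.0719 or 0.0724, Smpd1 for culture in MHC-IIlo 0.0585 or 0.0612, and for the difference of culture effects Sgms1 was 0.00340 or 0.0230 and Asah1 0.145 or 0.146. The same values at a pseudocount of 1 came without the filter. The list between subsets without lactate had 22 genes called (23 without the filter) in place of 14.

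For lactate in MHC-IIlo, 202 genes became 702 with DESeq2 and 531 with all 30 libraries. For lactate in MHC-IIhi, 34 became 128 and 53, 59 with the FPKM fit without a filter, and 54 without lactate MHC-IIlo 5 in the fit. There 1 list gene other than the 9 was called in place of 0 with DESeq2, all 30 libraries, log2(FPKM + 1) with the filter, the block or lactate MHC-IIlo 5 left out. RLE size factors left 2 of 4 members called between subsets without lactate.

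Leaving out 1 library at a time, all genes called ranged from 53 to 758 for lactate in MHC-IIlo and from 8 to 27 (8 to 22 among those that moved by over 1.5 times) in MHC-IIhi. List genes called ranged from 0 to 5 for lactate in MHC-IIlo and from 8 to 12 (8 to 9) between subsets without lactate, and members called from 0 to 2 (0 to 1) and 2 to 3. Signs turned for Sgms1 in fresh cells (0.00116 to 0.0557, whole range -0.11 to 0.0557), in no-lactate cells (0.0523, from -0.25) and for culture effects (0.0171 to 0.0868, from -0.23). They also turned with lactate for Sptlc2 (-0.0749 to -0.0201, up to 0.0936) and Ugcg (0.0173, from -0.25), and for lactate in MHC-IIlo for Smpd1 (0.00573 to 0.134, from -0.0968) and Asah1 (0.0361, from -0.13). Asah1 turned for culture effects as well (0.00483 to 0.00701, from -0.13).

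Fresh libraries of the same number had correlations of their deviations from 0.0700 to 0.497, with the own number the best partner in 4 of 5, a hint of pairing from the data. Since 1 pair lay under 0.1 and the labels name no shared animal or batch, the numbers were not used to pair them. A replicate block gave 5004 genes in place of 3737, with Sptlc2 called (adjusted p = 0.0352). Cultured columns with the same header number had correlations of -0.0423 to 0.484 between subsets with lactate and 0.0530 to 0.337 with and without lactate in MHC-IIlo (own number best in 4 of 5 for each), and of -0.0184 to 0.273 between subsets without lactate and -0.322 to 0.441 with and without lactate in MHC-IIhi (2 of 4 for each). The block on that number gave 1111 genes and 8 list genes for lactate in MHC-IIlo, 81 genes for lactate in MHC-IIhi, 20 list genes in place of 12 between subsets with lactate, and Sgms1 at 0.105 without and Sptlc2 at -0.000630 with lactate between subsets. No paired analysis was possible for the culture comparisons because fresh and cultured columns carry numbers of different kinds.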
